A study of Mus musculus with 16 samples.

Results

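The regions described here were more open without Brg1 in mTEChi: the lower of the Brg1-/- mTEChi libraries was at least 2 times the higher of the Brg1+/+ mTEChi libraries, and the Brg1-/- mean was at least 30 units of normalized signal. A stretch of chromosome 2 was left out of the rule, which removed 2 regions. Of 250313 regions of 500 bp in mm9 coordinates, 3561 met the rule, or 1.42%. Their signal in the 4 mTEChi libraries of the Brg1 line chose them, so those values are given as a description and carry no test. The 12 other libraries, which are the mTEClo libraries of the Brg1 line and all libraries of the Aire line, played no part in the choice.

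All mice were C57BL/6 by their labels and 4 weeks old, and their medullary thymic epithelial cells (mTECs) were profiled by ATAC-seq, in which the Tn5 transposase cuts and tags accessible DNA. The cells were sorted from thymus as EpCAM-positive, UEA-binding, Ly51-low and CD45-negative, and were split by surface MHC class II into mTEChi and mTEClo, with 60000 cells per reaction. The 8 groups of 2 libraries were Brg1-/- mTEChi, Brg1+/+ mTEChi, Brg1-/- mTEClo, Brg1+/+ mTEClo, Aire-/- mTEChi, Aire+/+ mTEChi, Aire-/- mTEClo and Aire+/+ mTEClo. No label names what drives the loss of Brg1, or tells whether replicate libraries are different mice, so their spread may be technical. The short names of the Brg1+/+ libraries read NOCRE, so Cre itself may be a further difference between Brg1-/- and Brg1+/+. Whether both sorts of a genotype came from the same mice is not stated either.

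Brg1, encoded by Smarca4, is an ATPase of the SWI/SNF (BAF) complexes, which use ATP to slide or evict nucleosomes. Loss of such a remodeller is known in many cell types to close a part of the enhancers, while other sites gain accessibility. mTECs display antigens of peripheral tissues to developing T cells, and Aire, which is most abundant in mTEChi, is a nuclear factor needed for the transcription of many of these genes. mTEChi largely derive from cells of the mTEClo fraction, which also holds cells past the Aire-expressing stage.

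The scale of the libraries bears on the choice of regions. Median signal over all regions was 15.4 and 19.8 in the Brg1-/- mTEChi libraries and 11.8 and 13.3 in the Brg1+/+ mTEChi libraries, although the 99th percentile lay between 214 and 217 in all 16. With the deposited values the rule found 3561 regions, and the mirrored rule for regions less open without Brg1 in mTEChi found 1118. After quantile normalization the counts were 1512 and 1906, and after each library was re-centred on its median they were 503 and 3716, so which direction held more regions depended on the scaling. The depth behind the values is unknown. Over all regions, the correlation of log2 signal within a group was r = 0.60 in Brg1-/- mTEChi and 0.69 in Brg1+/+ mTEChi, with a range of 0.55 (Aire+/+ mTEChi) to 0.81 (Brg1+/+ mTEClo) over the groups. In sorted bulk cells, fewer open cells and less opening per cell cannot be told apart. Neither the genotype nor the cell type was checked at marker genes, because regions were not linked to genes here.

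Most of the 3561 regions lay close to the thresholds. The ratio of the lower Brg1-/- to the higher Brg1+/+ value had a median of 2.61 (quartiles 2.24 and 3.27) and reached 18.1. Median signal in the Brg1-/- mTEChi libraries was 37.6 and 39.4, against 9.77 and 10.2 in the Brg1+/+ mTEChi libraries. Just inside the fold threshold, a region on chromosome 15 from 83589253 to 83589752 had 42.6 and 46.5 in Brg1-/- mTEChi and 21.3 and 10.8 in Brg1+/+ mTEChi. Just outside it, a region on chromosome 10 from 82682446 to 82682945 had 99.7 and 91.9 in Brg1-/- mTEChi, against 46.0 and 37.7 in Brg1+/+ mTEChi. Near the level threshold, the region on chromosome 7 from 52721457 to 52721956 had 26.3 and 33.7 in Brg1-/- mTEChi against 9.04 and 8.91 in Brg1+/+ mTEChi and was kept. That on chromosome 6 from 15126782 to 15127281 had 29.7 and 30.3 in Brg1-/- mTEChi against 1.49 and 2.84 in Brg1+/+ mTEChi and was not. A further 10811 regions met the fold but not the level, and of the 65350 that met the level 5.45% met the fold. Dropping one of the 4 mTEChi libraries from the rule, which makes it easier to meet, gave 8908 to 15901 regions.

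The regions with the largest ratios were nearly closed in Brg1+/+ mTEChi and differed among themselves in every other group. The largest ratio belonged to the region on chromosome 14 from 68249889 to 68250388, which held 46.2 and 41.5 in Brg1-/- mTEChi and 1.48 and 2.29 in Brg1+/+ mTEChi. Its other libraries were low in all genotypes, at 2.81 and 5.55 in Brg1-/- mTEClo against 1.86 and 0.629 in Brg1+/+ mTEClo, and at most 11.7 in the Aire line. On chromosome 12 from 43376606 to 43377105, which had no other region within 50 kb, Brg1-/- mTEChi held 37.1 and 35.2 and Brg1+/+ mTEChi 1.32 and 2.04. That region also stayed low elsewhere, apart from one Aire+/+ mTEChi library at 15.7 beside 2.95 in the other. Both are examples in which the Brg1-/- mTEChi libraries stood alone. The region on chromosome 15 from 85041109 to 85041608 was of another kind. It held 30.8 and 39.2 in Brg1-/- mTEChi and 1.14 and 1.73 in Brg1+/+ mTEChi, but 30.7 and 42.9 in Brg1-/- mTEClo and 42.9 and 29.3 in Brg1+/+ mTEClo. Its mTEClo libraries of the Aire line were high as well, at 56.2 and 56.1 in Aire-/- and 58.5 and 44.3 in Aire+/+, so it was open in mTEClo of every genotype. The region on chromosome 17 from 81415043 to 81415542 differed from all of these. There, Brg1-/- mTEChi had 51.2 and 47.8, while Brg1+/+ mTEChi, at 3.78 and 2.26, was the one low group. The Aire line had 49.8 and 42.0 in Aire-/- mTEChi and 30.3 and 46.1 in Aire+/+ mTEChi, and the mTEClo groups lay between 22.4 and 42.7.

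**Figure D1:**
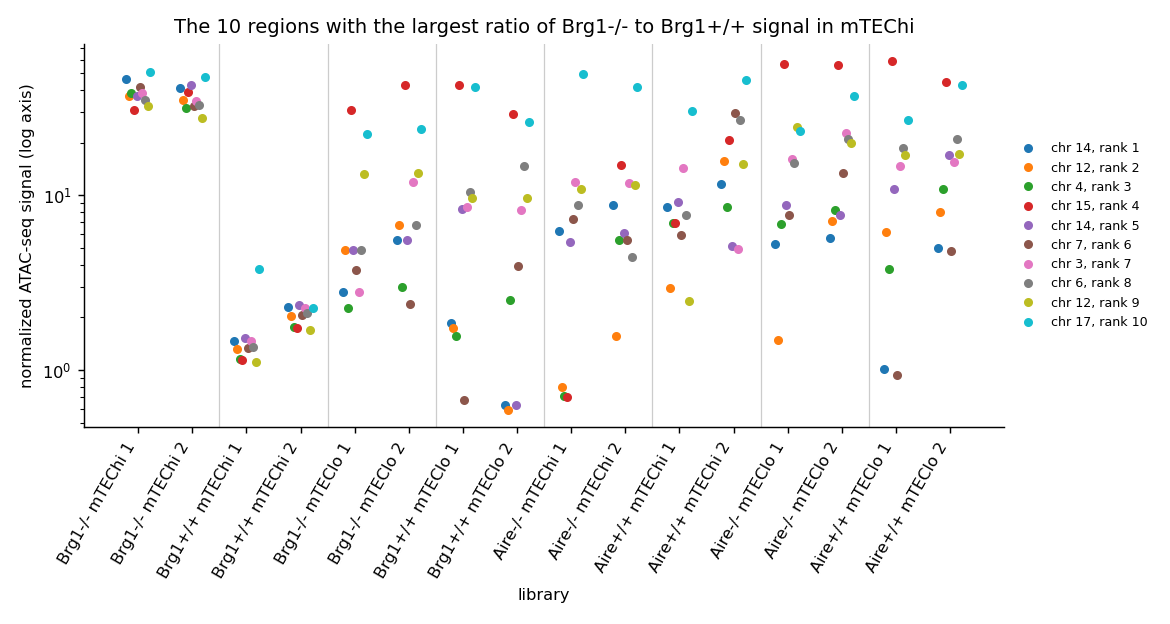
Normalized ATAC-seq signal (y, log axis) of the 10 regions with the largest ratio of Brg1-/- to Brg1+/+ signal in mTEChi, in each of the 16 libraries (x), 1 colour per region and pairs of libraries per group between grey lines. For this ranking, 1 was added to the lower Brg1-/- and to the higher Brg1+/+ value. All Brg1-/- mTEChi points lie at or above 27.8 and all Brg1+/+ mTEChi points at or below 3.78, which the choice fixes. In the other groups the regions spread over the whole range.

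Regions with the highest Brg1-/- mTEChi level were, in contrast to these, open in every library, none below 25.3. On chromosome 5 from 100751019 to 100751518, Brg1-/- mTEChi held 183 and 211 and Brg1+/+ mTEChi 64.2 and 75.2. The same region had 112 and 77.6 in Brg1-/- mTEClo, against 59.0 and 57.3 in Brg1+/+ mTEClo, and 71.8 and 109 in Aire-/- mTEChi, against 37.3 and 67.6 in Aire+/+ mTEChi. It was thus higher in both Brg1-/- libraries of the mTEClo sort as well, without passing the test (limma log2 fold change 0.67, SE 0.34, adjusted p = 0.815). At the region on chromosome 13 from 63173627 to 63174126, the Brg1+/+ mTEChi libraries disagreed, at 76.1 and 25.3, below 153 and 167 in Brg1-/- mTEChi. Its mTEClo signal was 152 and 149 in Brg1-/- and 161 and 142 in Brg1+/+, nearly the level of Brg1-/- mTEChi. On chromosome 10 from 128049648 to 128050147, every group other than Brg1-/- mTEChi (150.2 and 136) lay between 37.9 and 83.6.

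Outside the 4 libraries of the rule, the 3561 regions as a list had ordinary levels. Their median signal was 11.2 and 12.4 in Brg1-/- mTEClo and 9.76 and 9.07 in Brg1+/+ mTEClo, where all regions had 9.23 and 10.6 in Brg1-/- mTEClo and 9.01 and 8.51 in Brg1+/+ mTEClo. In the mTEChi of the Aire line it was 16.9 and 14.7 in Aire-/- and 15.96 and 18.2 in Aire+/+, where all regions had 16.03 and 13.4 in Aire-/- and 15.2 and 18.0 in Aire+/+. In mTEClo of the Aire line it was 14.1 and 12.9 in Aire-/- and 13.7 and 14.5 in Aire+/+. Within each of these 12 libraries, 50.5% to 59.96% of all regions lay below the median of the list, with the highest shares in the Brg1-/- mTEClo libraries. The share was 80.1% and 79.2% in the Brg1-/- mTEChi libraries and 43.5% and 37.3% in the Brg1+/+ mTEChi libraries. Within the list, the correlation of log2 signal between replicate libraries was r = 0.65 in Brg1-/- mTEClo and 0.72 in Brg1+/+ mTEClo, and 0.25 in Aire+/+ mTEChi, the lowest of the groups that played no part in the choice.

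**Figure D2:**
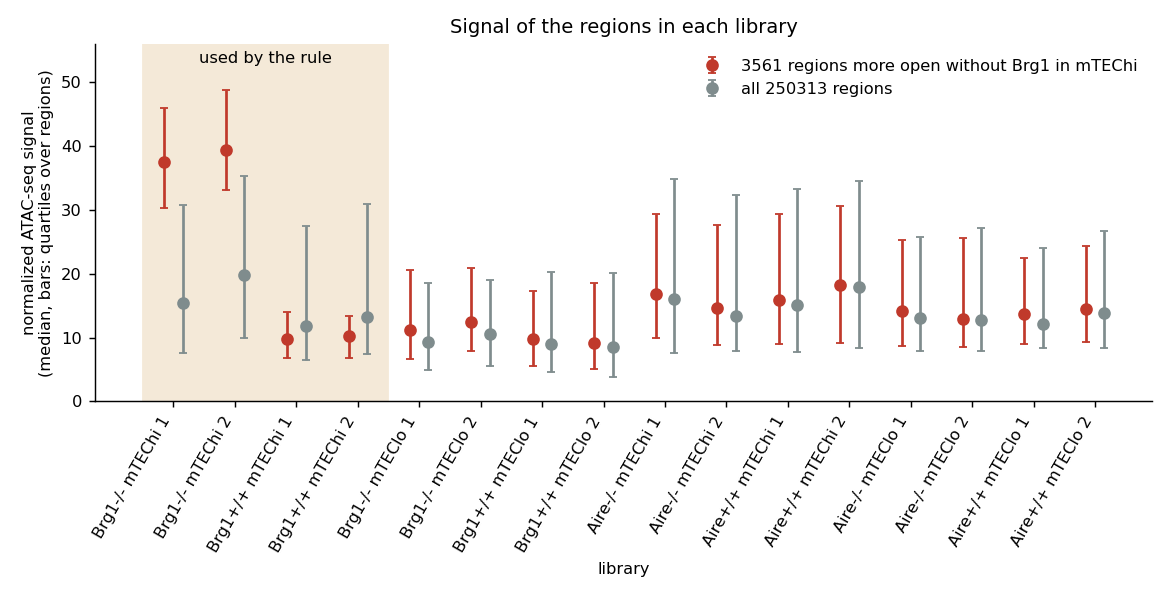
Median normalized ATAC-seq signal (y, points, with bars for the quartiles over regions) in each library (x) for the 3561 regions (red) and all 250313 regions (grey), with the libraries used by the rule shaded. Red stands far above grey in both Brg1-/- mTEChi libraries and below it in both Brg1+/+ mTEChi libraries, as the rule fixes, and lies a little above grey in each of the 12 others.

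The mTEChi of the Aire line lay between the groups that chose the regions. The choice itself favours such a position, because it sets Brg1-/- mTEChi high and Brg1+/+ mTEChi low. Group medians were 17.1 in Aire-/- mTEChi and 18.7 in Aire+/+ mTEChi, beside 37.3 in Brg1-/- mTEChi and 9.81 in Brg1+/+ mTEChi. On the log2 scale, the mean of the Aire line was nearer to Brg1-/- at 1297 regions (36.4%) and nearer to Brg1+/+ at 2264 (63.6%). The 1118 regions less open without Brg1 in mTEChi, chosen by the mirrored rule, had medians of 37.2 in Aire-/- mTEChi and 31.7 in Aire+/+ mTEChi, with 11.6 in Brg1-/- mTEChi and 40.7 in Brg1+/+ mTEChi. At those regions the Aire line was nearer to Brg1+/+ in 76.5%. The comparison uses the libraries of the rule and was not tested. The shares over all regions and after rescaling are not given. Medians over all regions also differed between the lines, at 11.8 and 13.3 in Brg1+/+ mTEChi and 15.2 and 18.0 in Aire+/+ mTEChi.

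A mean of 30 units, the level the rule asks of Brg1-/- mTEChi, was often not reached anywhere else. 2077 regions (58.3%) were below it in all 6 other groups, beside 58.3% of all regions. Another 647 (18.2%, beside 16.3%) reached it in mTEChi of the Aire line and in no mTEClo group. In 358 (10.1%, beside 7.37%) it was reached in an mTEClo group and not in mTEChi of the Aire line, and in 479 (13.5%, beside 18.1%) in both. Regions at that level in all 6 groups numbered 90, or 2.53%, beside 10.2% of all regions. In mTEClo, the first of these classes had a median log2 fold change of 0.35 for Brg1-/- against Brg1+/+, beside 0.13 for all regions of that class, and -0.13, beside -0.44, in the class open in mTEClo and not in mTEChi of the Aire line. A ceiling on the Brg1+/+ mTEChi value is part of the rule, and regions open everywhere rarely meet it.

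Brg1-/- and Brg1+/+ were then compared in mTEClo, to ask whether the same regions differ between the genotypes in libraries that did not choose them. As a list they leaned the same way, by much less, and no single region passed the test. Of the 3561 regions, 3555 passed a filter on mean signal over all libraries, and 6 did not. That mean includes the libraries of the rule, so the high Brg1-/- mTEChi values of the list favour its passing. limma called 0 of them higher and 0 lower at an adjusted p under 0.05, where it called 0% higher and 0.000444% lower among all 225281 regions tested. At an unadjusted p under 0.05 it placed 216 (6.08%) higher, beside 3.15% of all regions, and 53 (1.49%) lower, beside 3%. The median log2 fold change, on log2(signal + 1), was 0.28 (quartiles -0.22 and 0.78), beside 0.048 over all regions. It was positive at 65.4% of the regions, beside 52.9%. Without the filter, the medians were 0.28 in the list and 0.061 over all regions. After each library was re-centred on its median, the list had 0.12 and all regions -0.11, so the sign over all regions depended on the scaling. Both Brg1-/- mTEClo libraries exceeded both Brg1+/+ mTEClo libraries at 1060 regions (29.8%, beside 20.6% of all regions), and lay below both at 423 (11.9%, beside 18.4%).

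**Figure D3:**
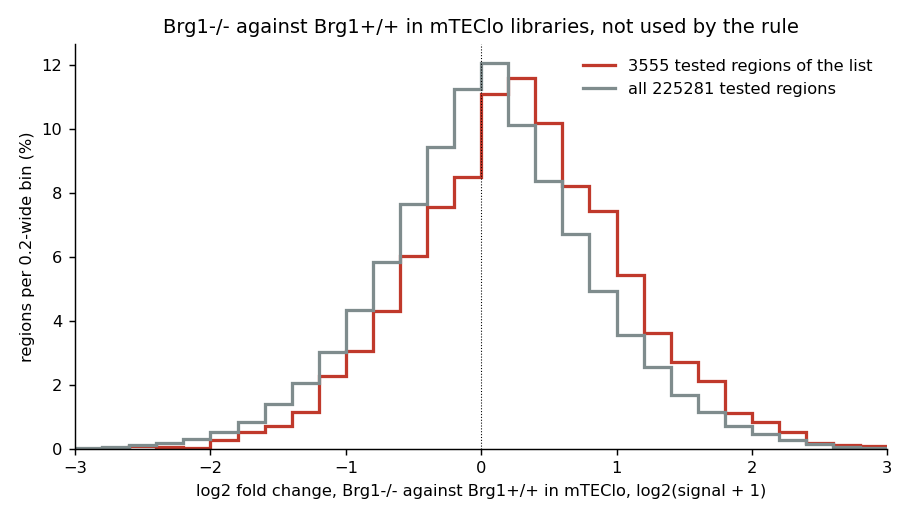
Distribution of the log2 fold change of Brg1-/- against Brg1+/+ in mTEClo (x, log2(signal + 1) scale) as the percentage of regions per bin (y), for the 3555 tested regions (red) and all 225281 tested regions (grey). The red curve is displaced to the right, with a median of 0.28 against 0.048, and the curves overlap over nearly their whole width.

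The difference of 0.23 between these medians kept its sign under each alternative, from 0.16 to 0.25. The lowest value came with a pseudocount of 5 and the highest without replicate 2 of Brg1+/+ mTEClo. It was 0.21 after quantile normalization. Among the regions chosen for the smallest unadjusted p, the one on chromosome 4 from 8889325 to 8889824 had 10.7 and 26.7 in Brg1-/- mTEClo and 0.368 and 0.625 in Brg1+/+ mTEClo (limma log2 fold change 3.59, SE 0.79, adjusted p = 0.295). It was also the region with the smallest adjusted p in the list, and its Aire+/+ mTEClo libraries held 12.6 and 7.22, nearer to the Brg1-/- values. On chromosome 6 from 41062822 to 41063321, Brg1-/- mTEClo had 17.1 and 28.4, against 1.91 and 3.01 in Brg1+/+ mTEClo (log2 fold change 2.76, adjusted p = 0.324).

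Of the tested regions of the list, 399 had a mean of at least 30 over the mTEClo libraries of the Brg1 line. Both Brg1-/- libraries lay above both Brg1+/+ libraries at 91 of them (22.8%, beside 18.4% of the 42359 regions of the table at that level), and below both at 91 (22.8%, beside 25.9%). The region on chromosome 14 from 31329423 to 31329922 had the largest difference upward, with 66.0 and 34.5 in Brg1-/- mTEClo and 10.5 and 17.0 in Brg1+/+ mTEClo (limma log2 fold change 1.76, SE 0.53, adjusted p = 0.611). Its mTEChi signal was 48.4 and 50.2 in Brg1-/- against 21.7 and 17.4 in Brg1+/+. The Aire line held 60.4 and 60.2 in Aire-/- mTEChi and 58.2 and 56.7 in Aire+/+ mTEChi, but 27.7 and 11.2 in Aire-/- mTEClo and 15.7 and 32.1 in Aire+/+ mTEClo, so its mTEChi was nearer to Brg1-/- mTEChi and its mTEClo nearer to Brg1+/+ mTEClo. On chromosome 11 from 106028731 to 106029230, mTEClo signal was 46.2 and 73.6 in Brg1-/- and 18.3 and 23.0 in Brg1+/+ (log2 fold change 1.46, adjusted p = 0.695), and mTEClo of the Aire line held 17.5 and 17.4 in Aire-/- and 31.8 and 27.2 in Aire+/+. All Brg1-/- libraries exceeded all other libraries at that region.

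Among the regions at that level with both Brg1-/- mTEClo libraries lower, the largest difference downward was on chromosome 16 from 23985382 to 23985881. Its mTEClo signal was 20.6 and 19.4 in Brg1-/- and 54.9 and 65.8 in Brg1+/+ (limma log2 fold change -1.54, SE 0.50, adjusted p = 0.654), while its mTEChi signal was 37.6 and 44.0 in Brg1-/- against 14.8 and 18.1 in Brg1+/+. The sorts of Brg1-/- therefore stood in the opposite order to those of Brg1+/+, which the choice of the region favours. A region on chromosome 12 from 32964657 to 32965156 followed the same pattern, with 27.2 and 20.8 in Brg1-/- mTEClo against 58.6 and 64.3 in Brg1+/+ mTEClo (log2 fold change -1.33, adjusted p = 0.808), and 36.7 and 43.4 in Brg1-/- mTEChi against 7.86 and 2.18 in Brg1+/+ mTEChi. In Aire+/+ it was higher in mTEClo, at 5.93 and 33.0 in Aire+/+ mTEChi and 66.9 and 64.0 in Aire+/+ mTEClo.

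How far mTEClo leaned the same way depended on the level of the region. All 250313 regions were ranked by mean log2 signal in the 12 other libraries and cut into 10 classes of equal size. The share that met the rule was 0.883% in class 1, the lowest, 2.44% in class 8, where it peaked, and 0.352% in the highest. In class 4, the median mTEClo log2 fold change was 0.45 at 303 regions of the list and 0.13 at all regions. In class 8 it was 0.21 at 610 and -0.047 at all. In class 9 it was -0.022 and -0.090, and in the highest -0.055 at 88 regions and -0.0039 at all. The median of the list was thus above 0 in classes 1 to 8. It was below 0 in classes 9 and 10, where 49.3% and 46.6% of the regions of the list were positive. Beside all regions of the same class, the list stood higher in classes 1 to 9.

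**Figure D4:**
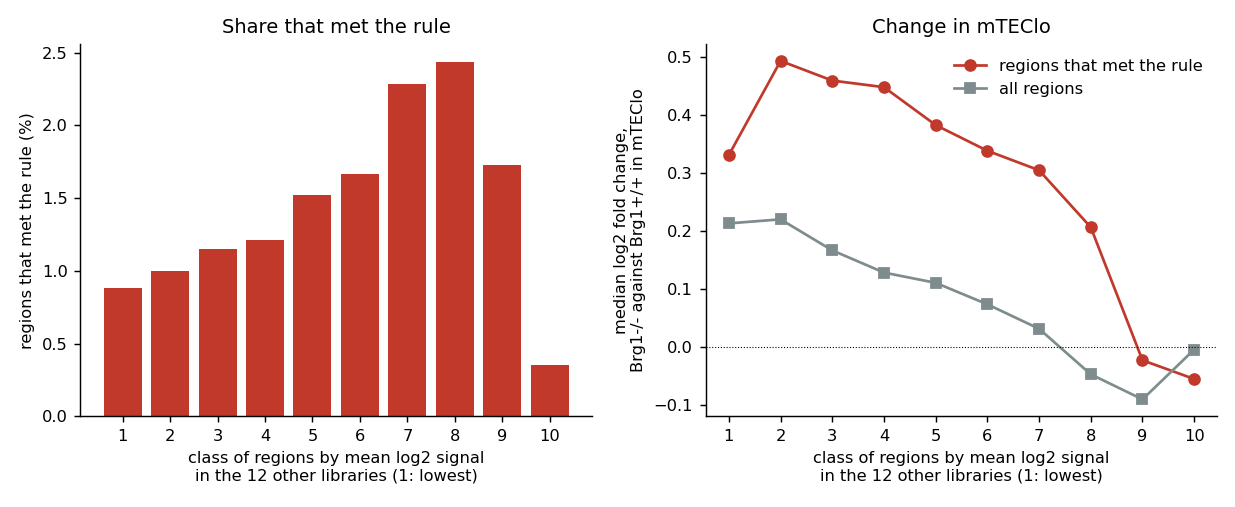
Left, the percentage of regions that met the rule (y) in each of 10 equal classes of regions ranked by mean log2 signal in the 12 libraries the rule did not use (x). Right, the median log2 fold change of Brg1-/- against Brg1+/+ in mTEClo (y) over the same classes for regions that met the rule (red) and all regions (grey): red is above grey in classes 1 to 9 and is lower in the upper classes, down to -0.055 in the highest.

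The mTEClo medians went from 0.25 to 0.38 with the ratio that chose the regions, though not in a steady order. The differences between these classes were not tested. Regions with a ratio of 2 to 2.5 had a median mTEClo log2 fold change of 0.25 (n = 1583 regions), those with a ratio of 2.5 to 3 had 0.30 (n = 830), and those with a ratio of 3 to 4 had 0.28 (n = 719). The 320 with a ratio of 4 to 6 had 0.38, as had the 109 with a ratio of 6 or more (0.38). Across the 3561 regions, the mTEChi and mTEClo log2 fold changes correlated with r = 0.032 and rho = 0.043, and over all regions with r = 0.059, where the points of each sort share the same 4 libraries. Sorted by their difference between mTEChi and mTEClo in Aire+/+, the 92 regions that were higher in Aire+/+ mTEClo by over 2 on the log2 scale had a median mTEClo fold change of -0.30, beside -0.47 for all regions of that class. The 589 that were higher in Aire+/+ mTEChi by 1 to 2 had 0.44, beside 0.20. In each of the 6 classes the list stood above all regions of that class, by 0.14 to 0.24.

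The Aire line was used to place the regions between the sorts. With the deposited values, a smaller share of the list than of the whole table was called different between mTEChi and mTEClo, and the difference in shares was not tested. In Aire+/+, limma called 84 of 3555 regions (2.36%) higher in mTEChi, beside 5.14% of all regions, and 107 (3.01%) higher in mTEClo, beside 3.65%. In Aire-/- it called 114 (3.21%, beside 7.15%) and 117 (3.29%, beside 4.22%). The median log2 fold change of mTEChi against mTEClo was 0.17 in Aire+/+, beside 0.16 over all regions, and 0.13 in Aire-/-, beside 0.10. Its sign in Aire+/+ depended on the scaling, at -0.043 after quantile normalization and -0.15 after re-centring. The regions less open without Brg1 in mTEChi had 0.93 in Aire+/+ and 1.12 in Aire-/-, so that list leaned toward mTEChi. The mirrored rule asks for a mean of at least 30 in Brg1+/+ mTEChi, where the rule used here sets a ceiling. The rules thus favour different wild-type mTEChi levels by construction, and the difference between the lists was not tested. The split of the calls at the regions described here also moved with the scaling. In Aire+/+ it was 74 higher in mTEChi and 182 higher in mTEClo after quantile normalization, and 44 and 169 after re-centring. In Aire-/- it was 97 and 166, and 79 and 134. Shares over all regions after rescaling are not given, so the comparison of shares above covers the deposited values only. Leaving out 1 of the compared libraries left a single library in its group. Fewer regions of the list were then called in most cases, which does not show that the values of any library decided the calls.

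**Figure D5:**
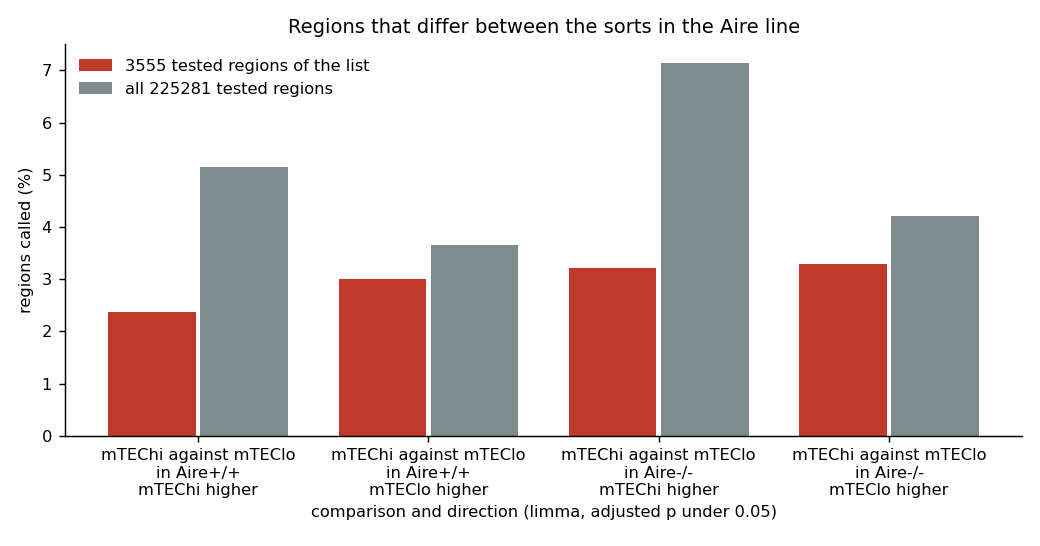
Percentage of regions (y) that limma called higher in mTEChi or higher in mTEClo (x) in Aire+/+ and in Aire-/- at an adjusted p under 0.05, for the 3555 tested regions of the list (red) and all 225281 tested regions (grey). The red bar is the shorter one in all 4 pairs, with 2.36% against 5.14% for mTEChi-higher regions in Aire+/+.

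Some regions of the list were far higher in mTEClo than in mTEChi of the Aire line. On chromosome 18 from 67488785 to 67489284, Aire+/+ mTEChi held 8.02 and 16.6 and Aire+/+ mTEClo 171 and 154 (limma log2 fold change -3.70, SE 0.39, adjusted p = 7.19e-07). The Brg1 line had 29.5 and 39.7 in Brg1-/- mTEChi and 11.3 and 10.2 in Brg1+/+ mTEChi, below 129.7 and 119 in Brg1-/- mTEClo and 162 and 136 in Brg1+/+ mTEClo. All 8 mTEClo libraries exceeded all 8 mTEChi libraries at that region. The largest fold change of this kind was on chromosome 12 from 95519026 to 95519525, at 6.29 and 2.00 in Aire+/+ mTEChi and 85.7 and 79.0 in Aire+/+ mTEClo (log2 fold change -4.15, SE 0.58, adjusted p = 2.54e-05). There, Brg1-/- mTEChi had 29.9 and 37.2, against 1.5 and 7.52 in Brg1+/+ mTEChi. In Aire-/-, the region on chromosome 9 from 70732399 to 70732898 had the largest, with 1.65 and 2.00 in its mTEChi and 74.5 and 57.7 in its mTEClo libraries (limma log2 fold change -4.56, adjusted p = 3.44e-06), where Brg1-/- mTEChi had 39.5 and 32.4 and Brg1+/+ mTEChi 6.43 and 10.7.

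Regions higher in mTEChi of the Aire line were described in the same way. On chromosome 17 from 34429311 to 34429810, Aire-/- mTEChi held 106 and 112 and Aire-/- mTEClo 12.1 and 6.26 (limma log2 fold change 3.49, SE 0.61, adjusted p = 0.000279), and Aire+/+ had 102 and 44.8 in mTEChi and 11.1 and 8.22 in mTEClo (adjusted p = 0.00434). Brg1-/- mTEChi had 64.8 and 56.4 and Brg1+/+ mTEChi 22.7 and 25.8, an order that the rule fixes. The region lay in a dense stretch, with 103 other regions within 50 kb, where the median of the list was 17.0. On chromosome 5 from 114955373 to 114955872, Aire+/+ mTEChi had 45.9 and 35.8 and Aire+/+ mTEClo 3.81 and 0.588 (log2 fold change 3.91, SE 0.75, adjusted p = 0.000878), while Brg1-/- mTEChi had 46.0 and 37.1 and Brg1+/+ mTEChi 13.1 and 8.15.

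The genotypes of the Aire line were compared next, to see whether the list differs without Aire. The medians of the list stood close to those of the whole table. Between Aire-/- and Aire+/+, the median log2 fold change was -0.0054 in mTEChi, beside -0.0015 over all regions, and -0.0032 in mTEClo, beside 0.00045. In mTEChi, limma called 2 regions higher (0.0563%, beside 0.0111% of all regions) and 0 lower (beside 0.00977%). At an unadjusted p under 0.05 it placed 202 (5.68%, beside 4.98% of all regions) higher and 204 (5.74%, beside 5.2%) lower. In mTEClo it called 0 in either direction, as over all regions (0%). At the unadjusted threshold it placed 71 (2.00%, beside 1.29%) higher and 51 (1.43%, beside 1.21%) lower. These unadjusted shares of the list were above those of all regions in both sorts and directions, and the difference was not tested. One call was the region on chromosome 3 from 35303430 to 35303929, which held 26.1 and 32.0 in Aire-/- mTEChi, against 3.95 and a listed 0 in Aire+/+ mTEChi (limma log2 fold change 3.75, SE 0.71, adjusted p = 0.0490). All mTEClo libraries there lay between 16.3 and 46.9. The other was the region on chromosome 17 from 14997209 to 14997708, which held 33.7 and 27.5 in Aire-/- mTEChi, against 3.64 and a listed 0 in Aire+/+ mTEChi (log2 fold change 3.87, adjusted p = 0.0490). Both calls have replicate 2 of Aire+/+ mTEChi at a listed 0. The number of regions called higher went to 0 with a replicate block and after either rescaling. Regions called lower numbered 1 after quantile normalization. Shares over all regions under these alternatives are not given. Leaving out 1 library left a single library in its group, and the number of calls then moved with the library left out.

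The rule applied to Aire-/- and Aire+/+ mTEChi gave 3115 regions more open without Aire, of which 52 were also more open without Brg1. They were 1.46% of the regions described here, close to the 1.24% of all regions that met the Aire rule, and 1.67% of the regions more open without Aire. By the smaller of both ratios, the first of them was on chromosome 16 from 49893024 to 49893523. It held 42.0 and 42.3 in Brg1-/- mTEChi, against 9.67 and 2.33 in Brg1+/+ mTEChi, and 37.5 and 35.3 in Aire-/- mTEChi, against 8.66 and 1.84 in Aire+/+ mTEChi (limma adjusted p = 0.182 for Aire). Both knockouts were at similar levels there. All 4 +/+ mTEChi libraries were lower, which the choice by both rules fixes. The p-value for Aire comes from libraries that chose the region, so it is given as a description.

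The wild types of the lines were compared in mTEClo, since the Brg1+/+ mTEClo libraries are shared with the comparison above. The median log2 fold change of Aire+/+ against Brg1+/+ mTEClo was 0.52 at the regions of the list and 0.42 over all regions. limma called 0 higher and 0 lower (beside 0.00178% and 0.0351% of all regions). At an unadjusted p under 0.05 it placed 320 (9.001%, beside 6.79%) higher and 10 (0.281%, beside 0.611%) lower. Most of the offset between the lines at these regions was that of the whole table, with 0.10 more in the list.

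The regions were scattered over all chromosomes. They made up 2.00% of the regions of chromosome 10 (250 of 12513) and 1.72% of those of chromosome 12, the highest shares, and 0.949% of those of chromosome X (40 of 4214), the lowest, beside 1.42% over all. Chromosome 10 also had the highest share after quantile normalization, 0.927% beside 0.604%, and after re-centring, 0.384% beside 0.201%. The number of other accessible regions within 50 kb had a median of 17.0 in the list and 17.0 over all regions. Another region of the list lay within 5 kb of 146 of them (4.10%) and within 50 kb of 929 (26.1%). The shares that an equal number of other regions would give are not known. The values here and below therefore do not tell whether the regions of the list cluster. With gaps of at most 50 kb, 2626 stood alone, 325 runs held 2, and the longest held 6. That run spanned chromosome 10 from 59411113 to 59444122, or 33.0 kb, and 6 of its 19 regions met the rule. Their median signal was 37.1 in Brg1-/- mTEChi and 10.3 in Brg1+/+ mTEChi, and 12.2 in Brg1-/- mTEClo and 10.1 in Brg1+/+ mTEClo.

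Accessible regions next to those of the list had differences like those of the rest of the table. Regions outside the list whose centre lay within 1 kb of one in it (n = 1454) had a median log2 fold change of 0.19 for Brg1-/- against Brg1+/+ in mTEChi, those at 1 to 5 kb had 0.24, and all regions outside the list had 0.22. For the regions more open without Aire, measured in the same way between Aire-/- and Aire+/+ mTEChi, the neighbours within 1 kb had 0.19 and all regions outside that list -0.037. These values come from the libraries of the rules and carry no test.

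A smaller set met the rule with the deposited values and after both rescalings tried. Of the 3561 regions, 1466 also met it after quantile normalization, and 503 met it after both rescalings. In these 503, median signal was 47.1 in Brg1-/- mTEChi and 9.65 in Brg1+/+ mTEChi, with a median ratio of 3.49. Aire+/+ mTEChi had 20.7. In mTEClo, their median log2 fold change of Brg1-/- against Brg1+/+ was 0.40, positive at 72.8% of them, beside 0.28 and 65.4% for the whole list. The 503 were chosen after the values were seen, and they were not tested as a set.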

How the data were processed

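The authors deposited 1 table of normalized signal, which is not whole counts, for 250313 regions in 16 libraries; each column matched the description of 1 library. Per the submitters' processing notes, Bowtie2, MACS2 and mm9 were used, with no version or role stated. The sources used here do not say how regions were defined or how reads were shifted for the Tn5 offset, de-duplicated and scaled, and depth and counting error are unknown. The start in a region's name was taken as counted from 0, and positions are printed counted from 1. Genes near the regions and their sequence were not analysed here, because the reference tables used another assembly.

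Signal was analysed as log2(signal + 1), which understates the change of low regions. The filter on low values kept regions whose mean signal over all 16 libraries was at least 7.48, the 10th percentile. limma 3.58.1 in R 4.3.3 fitted 1 mean per group over all 16 libraries (8 residual degrees of freedom; trend and robust variances). Adjusted p-values are Benjamini-Hochberg over all 225281 regions, two-sided, for 6 contrasts between groups that the rule did not use. The variance of each region was still estimated from all 16 libraries, including those of the rule. With only the 12 other libraries, list calls numbered 96 higher in mTEChi and 121 higher in mTEClo in Aire+/+. They were 116 and 132 in Aire-/-, and 0 in either direction for Brg1-/- against Brg1+/+ in mTEClo. The procedure was checked on simulated data. Lists are described by counts and medians beside all regions, without a set test. Python 3.11.15 and pandas 2.3.3 were used for the rest.

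The members, lists and tests were chosen with earlier results of these data known. Named regions were the 10 largest ratios, the 5 highest levels, those nearest the thresholds, up to 5 called regions per contrast and direction by fold change (or the 3 smallest p), the 5 largest mTEClo differences without overlap in each direction, the longest runs, and up to 5 that also met the Aire rule; the text gives a subset. Alternatives were other pseudocounts, filters, rescalings, sets of libraries, a replicate block, leaving out each library, and other thresholds of the rule.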

Additional observations from a re-analysis of the deposited data

Results flagged for a closer look

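Of 75 regions of the list that met the rule for named regions, 18 had both Brg1-/- libraries above both Brg1+/+ libraries in mTEChi, which the choice fixes, and both below in mTEClo. The difference between the sorts was not tested. The mTEClo log2 fold change was -2.67 on chromosome 5 from 99817218 to 99817717, -2.44 on chromosome 10 from 84622772 to 84623271, -1.89 on chromosome 9 from 57126074 to 57126573, -1.82 on chromosome 1 from 64974993 to 64975492, -1.54 on chromosome 16 from 23985382 to 23985881, -1.52 on chromosome 9 from 66963729 to 66964228, -1.42 on chromosome 6 from 91064828 to 91065327, -1.39 on chromosome 13 from 112906294 to 112906793, -1.33 on chromosome 12 from 32964657 to 32965156, -1.30 on chromosome 7 from 90729489 to 90729988, -1.24 on chromosome 1 from 80819653 to 80820152, -0.98 on chromosome 6 from 134378561 to 134379060, -0.93 on chromosome 5 from 28956706 to 28957205, -0.60 on chromosome 14 from 55428066 to 55428565, -0.56 on chromosome 7 from 121314884 to 121315383, -0.51 on chromosome 17 from 81415043 to 81415542, -0.39 on chromosome 9 from 60747037 to 60747536 and -0.25 on chromosome 18 from 67488785 to 67489284. In the whole list, 423 regions (11.9%) had this order, beside 18.4% of all tested regions with both Brg1-/- mTEClo libraries lower. Of the 18, 8 were chosen for a lower mTEClo value in Brg1-/-.

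At 8 of the 75, Aire-/- and Aire+/+ stood in opposite orders in the sorts without overlap, again without a test of the difference. The mTEClo log2 fold change, Aire-/- against Aire+/+, was -1.24 on chromosome 15 from 25930468 to 25930967, -0.81 on chromosome 8 from 119991983 to 119992482, -0.64 on chromosome 17 from 14997209 to 14997708, -0.47 on chromosome 3 from 35303430 to 35303929, 0.64 on chromosome 14 from 55428066 to 55428565, 0.97 on chromosome 15 from 83589253 to 83589752, 1.93 on chromosome 5 from 100646777 to 100647276 and 2.29 on chromosome 2 from 163054998 to 163055497. This held at 186 regions of the list (5.22%), beside 5.67% of all regions. At 6, mTEChi and mTEClo stood in opposite orders in the genotypes of the Aire line, also untested, with a log2 fold change of mTEChi against mTEClo in Aire-/- of -2.15 on chromosome 8 from 26722132 to 26722631, -1.14 on chromosome 2 from 163054998 to 163055497, -0.92 on chromosome 10 from 127175554 to 127176053, -0.83 on chromosome 15 from 83589253 to 83589752, -0.60 on chromosome 7 from 65558995 to 65559494 and 1.61 on chromosome 17 from 14997209 to 14997708. That order was found at 160 regions of the list (4.49%), beside 3.76% of all regions.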

How the results depend on the processing

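The direction of the mTEClo median held under every alternative tried, while counts of calls moved. The cause was not tested. Counts of calls under the alternatives, here and above, are given without the share over all regions. Across all alternatives, 50 values moved and 87 were counts of 0 calls that stayed at 0. The other 53 were counts within 1.5 times the reported one or medians within 1 SD of it, from the spread of the library medians. The rule gave 6972 regions with a fold of 1.5, 1148 with a fold of 3, 8009 with a mean of 20, 609 with a mean of 50, 1512 after quantile normalization, 503 after re-centring and 8908 to 15901 without 1 of its libraries, where fewer conditions remain by construction. The median mTEClo log2 fold change of Brg1-/- against Brg1+/+ was 0.40 with the rule applied after re-centring and 0.12 with the fold change re-centred, and that of mTEChi against mTEClo in Aire+/+ was -0.043 after quantile normalization and -0.15 after re-centring of the fold change. In Aire+/+, calls higher in mTEChi numbered 129 with a pseudocount of 5, 44 after re-centring, 19 with only the 4 libraries compared and 16 to 81 without 1 library, and calls higher in mTEClo 182 after quantile normalization, 169 after re-centring, 41 with the 4 libraries and 29 to 115 without 1. In Aire-/-, calls higher in mTEChi numbered 240 with the 4 libraries and 19 to 65 without 1, and calls higher in mTEClo 29 to 65 without 1. Calls higher in Aire-/- than in Aire+/+ mTEChi numbered 0 with a pseudocount of 0.5 or 5, no filter, either rescaling, the 4 libraries or the replicate block, 1 with a filter at the 50th percentile and 0 to 38 without 1 library, and calls lower numbered 1 after quantile normalization, 2 with the 12 libraries and 0 to 11 without 1.

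Equal replicate numbers are not said to mark shared mice, and differences between replicates correlated between groups at -0.018 to 0.034; with the replicate block the calls in Aire+/+ numbered 80 and 105 and in Aire-/- 113 and 115. Groups of 2 libraries and an unknown depth limit all tests. Of the list, 503 regions met the rule after both rescalings. Leaving a library out of the rule and rescaling the medians of the list were alternatives chosen after seeing the data. The low number of calls in mTEClo does not show that the genotypes were alike there.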
